A study of Mus musculus with 16 samples.

Results

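The genes described are 10 immediate early and NR4A transcription factor genes: Fos, Fosb, Jun, Junb, Egr1, Nr4a1, Nr4a2, Nr4a3, Atf3 and Ier2. They were chosen by name as rows of the deposited read count table whose Ensembl identifier carries one of these symbols in GENCODE M21, and all 10 were found among its 54838 genes. The 16 RNA-seq libraries came from adrenal glands, each of another mouse, and all mice were 4 weeks old and of mixed background. The 4 groups of 4 libraries were female control, female Rspo1 GOF, male control and male Rspo1 GOF, where GOF stands for gain of function. The product of Rspo1, R-spondin 1, is secreted and amplifies WNT signals. The promoter that drives the Rspo1 allele and the exact genotype of the controls were not given in the sources used here.

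Immediate early genes are transcribed within minutes of a stimulus, without new protein synthesis, and their RNAs are short-lived. FOS and JUN family proteins pair into the AP-1 transcription factor, EGR1 is a zinc finger factor, and the NR4A proteins are nuclear receptors that act without a known hormone ligand. In the adrenal cortex, NR4A genes are known to respond to ACTH and angiotensin II and to act on steroidogenic genes, and immediate early genes are known to respond to stress and tissue handling as well.

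The start regions of the genes are shown here because Jun and Nr4a3 carry the differences between groups described below, while Fos and Nr4a1 varied most among mice of 1 group. RefSeq promoter windows on GRCm38.p6 matched 8 of the 10 genes, all but Egr1 and Ier2, and the 250 bases before each start were searched on both strands. Each sequence runs 5′ to 3′ on the strand of its gene. Capitals mark TGACG, the core of the cAMP response element, which reads CGTCA on the other strand, the JUN-type AP-1 element TGACATCA, and the EGR element GCGNGGGCG. Jun is on the minus strand (chr4:95052223-95052472), Nr4a3 on the plus strand (chr4:48045055-48045152, only the 98 bases outside annotated exons), Fos on the plus strand (chr12:85473640-85473889) and Nr4a1 on the plus strand (chr15:101266596-101266845, within the span of its longer transcripts).
Jun: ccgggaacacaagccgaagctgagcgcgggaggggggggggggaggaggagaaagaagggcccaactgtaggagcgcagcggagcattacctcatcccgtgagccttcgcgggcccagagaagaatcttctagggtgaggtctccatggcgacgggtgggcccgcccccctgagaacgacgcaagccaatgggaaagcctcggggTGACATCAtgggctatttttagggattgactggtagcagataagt
Nr4a3: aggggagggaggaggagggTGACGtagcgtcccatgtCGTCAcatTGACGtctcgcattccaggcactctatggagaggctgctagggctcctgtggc
Fos: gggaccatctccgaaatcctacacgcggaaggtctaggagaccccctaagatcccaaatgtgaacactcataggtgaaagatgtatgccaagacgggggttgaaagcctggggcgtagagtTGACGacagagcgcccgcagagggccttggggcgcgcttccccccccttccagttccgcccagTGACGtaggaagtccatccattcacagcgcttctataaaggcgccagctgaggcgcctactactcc
Nr4a1: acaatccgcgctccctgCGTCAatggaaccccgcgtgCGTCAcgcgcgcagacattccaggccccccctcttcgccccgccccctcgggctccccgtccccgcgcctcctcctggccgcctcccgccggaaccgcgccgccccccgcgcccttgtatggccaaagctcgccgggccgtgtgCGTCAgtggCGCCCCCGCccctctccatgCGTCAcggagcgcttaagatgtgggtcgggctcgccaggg

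The core TGACG was present in 7 of the 8 windows, against 17.8% of 32851 RefSeq windows of the same length. Nr4a1, Nr4a2 and Nr4a3 held 4 copies each. The Nr4a3 copy at -147 lies in annotated exon sequence and so is not in the stretch printed above, and the only Atf3 copy, at -7, lies in exon sequence as well. In Nr4a1 the copy nearest the start began at position -40. Fos held 2 copies, at -129 and -66. Jun was the window without the core and held TGACATCA at -45, which was present in 2.93% of all windows. The complete element TGACGTCA, which contains the core, was present in 1.55% of all windows and in none of the 8. The EGR element was found in Fosb, Nr4a1 and Nr4a2, against 4.70% of all windows. These matches describe letters only. The AP-1 element TGANTCA, the NR4A element AAAGGTCA and the CArG box, which serum response factor binds, had no match in these 8 windows and were present in 6.75%, 1.34% and 1.47% of all windows. Elements outside these 250 bases, or in Egr1 and Ier2, would not be seen here.

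Library totals lay between 31275146 and 43003968 counts, and a level in CPM is a TMM-scaled count relative to the library total. Rspo1 was at 3.20 to 40.6 CPM in female controls, 354 to 532 CPM in female GOF, 19.4 to 48.2 CPM in male controls and 535 to 972 CPM in male GOF, so every library matched its genotype label, and 16 of 16 matched their sex label. All 7 cortex markers were above 1 CPM, with summed levels of 18748 to 38480 CPM. Liver transcripts stood at 8278 CPM in male control 2, against at most 55.8 CPM elsewhere, and kidney tubule transcripts reached 934 and 152 CPM in female controls 1 and 3, with at most 2.25 CPM elsewhere. Where a named gene's call was lost without these 3 libraries, its value without them is given. Summed medulla markers were 5408 to 12262 CPM in female controls and 231 to 876 CPM in female GOF, and 8991 to 12624 CPM in male controls and 456 to 999.8 CPM in male GOF. All 8 medulla markers were called lower in GOF in either sex, against 20.6% of all tested genes in females and 21.8% in males. The part of these markers in the comparisons of GOF with control below was not tested. In whole glands, fewer cells of a type and less RNA per cell cannot be told apart.

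All 10 genes were measured well enough to be tested, among 18214 tested genes. Per length, over the 16 libraries, Nr4a1 had the highest mean level at 225 FPKM and Jun followed at 85.2 FPKM. Junb stood at 44.4, Ier2 at 22.0, Nr4a3 at 16.9 and Egr1 at 11.2 FPKM. Fos at 5.59, Nr4a2 at 4.29, Atf3 at 2.84 and Fosb at 0.594 FPKM were low. Neighbours in this order were often closer than their own spread over libraries: the SD was 158.8 FPKM for Nr4a1 and 57.3 FPKM for Jun, and 5.36 FPKM for Fos and 3.92 FPKM for Nr4a2. Fosb, a FOS family subunit, was read from only 18 to 184 counts in a library, Fos from 38 to 756 and Atf3 from 64 to 651, so the values of these 3 genes carry the most counting error.

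**Figure D1:**
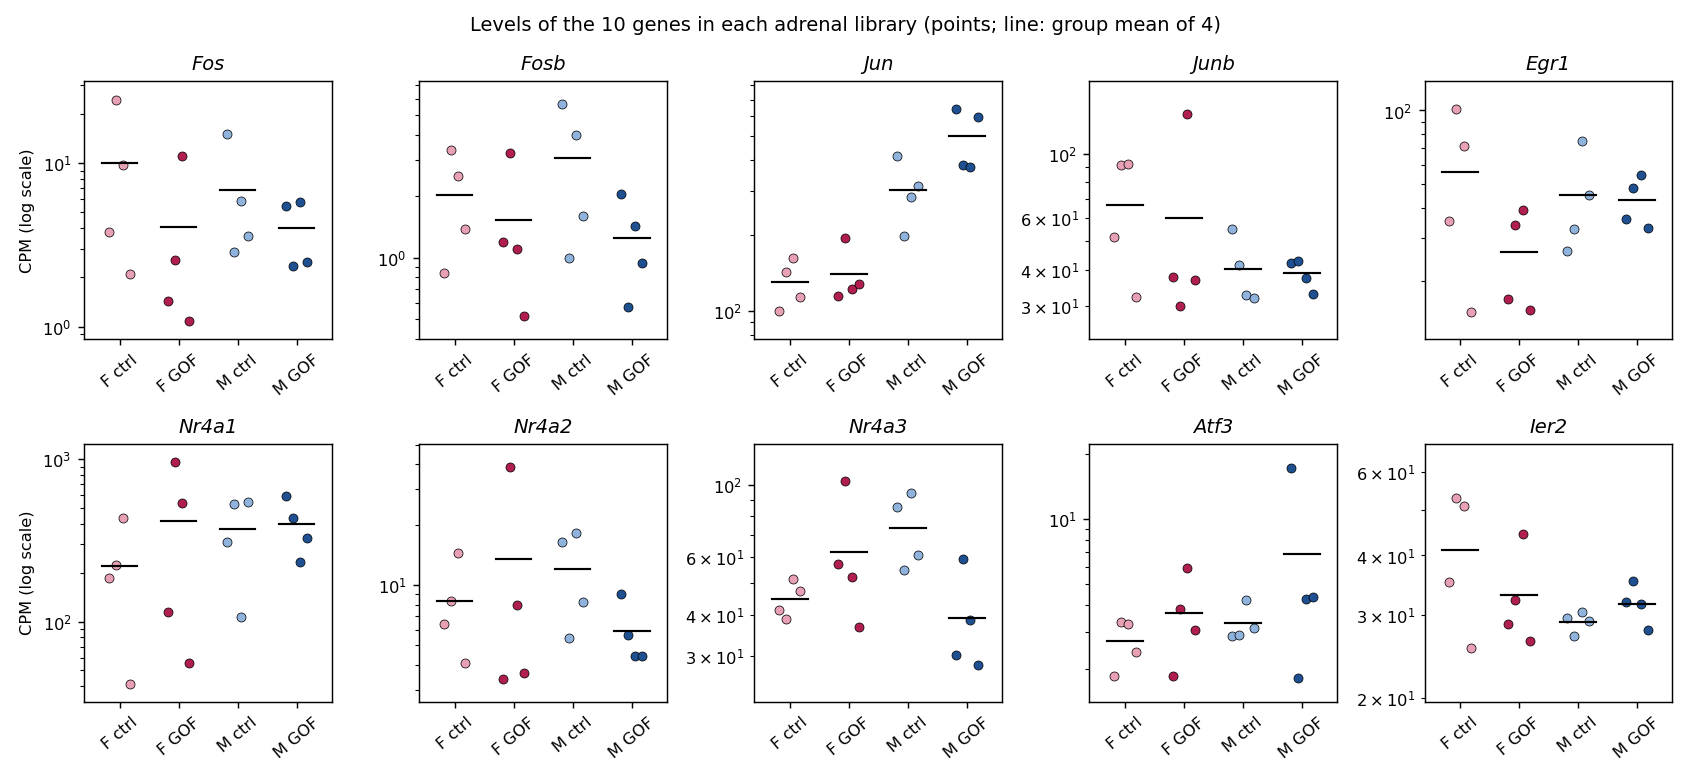
CPM of the 10 genes on log axes that differ between panels, 1 point per library and a line at the arithmetic mean of the 4 libraries of a group. Jun in males lay above every female library, while most other genes spread widely within groups.

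Jun was the gene with the clearest group difference: it was higher in males in both genotypes. Jun (chr4:95049034-95052222, minus strand) encodes c-Jun, the AP-1 subunit that can pair with itself or with FOS family proteins. In female controls Jun stood at 99.5, 143, 162 and 114 CPM, and in male controls at 415, 199, 286 and 316 CPM. The lowest male control lay above the highest female control, and the means were 304 ± 88.9 (SD, n = 4) and 130 ± 28.4 (SD, n = 4) CPM. The log2 fold change of males against females was 1.23 ± 0.25 (SE), or 2.35-fold, with an adjusted p of 0.00299 (edgeR's quasi-likelihood test, Benjamini-Hochberg adjustment over all tested genes). In GOF glands the female libraries held 114, 195, 122 and 128 CPM and the male libraries 639, 383, 377 and 596 CPM. Again no male value reached down to a female one, and the log2 fold change was 1.84 ± 0.255 (SE), 3.57-fold, with an adjusted p of 0.000121 by edgeR.

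The sex difference of Jun passed in all 16 fits that left out 1 library, in both genotypes, with values of 1.04 to 1.39 in controls and 1.70 to 2.05 in GOF. It also passed in all 12 other settings. The animal numbers in the sample titles fall into ranges, of which only the lowest held both sexes. In that range the difference in mean log2 CPM was 1.53 in controls (3 males and 1 female) and 2.12 in GOF (2 males and 1 female). The female of each genotype there had the lowest Jun of its group, at 99.5 and 114 CPM. Female control 1, at 99.5 CPM, was also the library with 934 CPM of kidney tubule transcripts. Macrophage markers moved with it: 7 of 10 were called higher in males in controls and in GOF, with sums of 232 to 383 CPM in female controls, 416 to 580 CPM in male controls, 324 to 704 CPM in female GOF and 637 to 1808 CPM in male GOF. Capsule and fibroblast markers were called higher in males for 5 of 6 genes in both genotypes, and endothelial markers for 6 of 7 in GOF and 0 of 7 in controls by edgeR and by DESeq2, with 0 at an unadjusted p under 0.05. Adipocyte markers were called higher for 2 of 7 genes in male controls (median 0.55) and lower for 3 of 7 in male GOF (median -1.02). Of all tested genes, 13.5% were called higher in males in controls and 13.3% in GOF, where 16.3% were called lower. The part of these cells in the Jun difference was not tested.

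Against the background of each comparison, Jun was the only 1 of the 10 genes called between the sexes. Of all tested genes, 23.4% were called between males and females in controls (13.5% higher and 9.89% lower in males) and 29.6% in GOF (13.3% and 16.3%), and groups did not overlap for 25.3% and 29.1%. The share of the 10 genes called, 1 of 10, lay below that of all tested genes in both genotypes. In controls 3 genes had an unadjusted p under 0.05: Jun, Nr4a3 and Ier2. Nr4a3 did not overlap between the sexes in controls but missed the adjusted threshold (log2 fold change 0.72, adjusted p = 0.0882 by edgeR), and passed in a fit of the controls alone (0.67, adjusted p = 0.0383) or without female GOF 2 (0.71, adjusted p = 0.0464). In GOF it was called lower in males without female GOF 4 (-0.85, adjusted p = 0.0461) or male GOF 2 (-0.94, adjusted p = 0.0286). Ier2, a small nuclear immediate early protein, had a log2 fold change of -0.50 (adjusted p = 0.0804 by edgeR) and passed by DESeq2 (-0.53, adjusted p = 0.0477).

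Rspo1 GOF went with a further difference of Jun in males. From the male values above, the mean was 499 ± 138 (SD, n = 4) CPM in GOF against 304 ± 88.9 in controls. The control at 415 CPM lay above the GOF libraries at 383 and 377 CPM, so the groups overlapped. The log2 fold change was 0.71 ± 0.248 (SE), 1.64-fold, with an adjusted p of 0.0350 by edgeR. This call was lost in 5 of the 16 fits without 1 library: without male control 2 (0.55), male control 3 (0.68), male control 4 (0.73), male GOF 1 (0.55) or male GOF 4 (0.60), with adjusted p-values of 0.0580 to 0.116. It was also lost without the 3 libraries with liver or kidney transcripts (0.55, adjusted p = 0.109), without a filter (0.74, adjusted p = 0.0845), with the male groups alone (0.71, adjusted p = 0.0655) and with the range of animal numbers as a covariate (0.72, adjusted p = 0.0517). Within ranges of animal numbers the difference in mean log2 CPM was 0.79 (2 GOF and 3 controls) and 0.59 (2 GOF and 1 control). In females Jun had a log2 fold change of 0.11 ± 0.247 (SE) (adjusted p = 0.759 by edgeR), with means of 130 ± 28.4 and 140 ± 37.1 (SD, n = 4 each) CPM. The difference between the male and the female GOF effect was 0.61 ± 0.349 (SE) and did not pass (adjusted p = 0.343 by edgeR), so the effects are not shown to differ. Other measures moved in the same comparisons. Macrophage markers were called higher in GOF for 7 of 10 genes in males, against 15.2% of all genes, and for 2 of 10 in females, against 19% of all genes. Endothelial markers were called higher for 2 of 7 genes in males and 0 of 7 in females. Of the 7 cortex markers, 1 was called higher and 2 lower in either sex. Of all genes, 21.8% were called lower in male GOF and 20.6% in female GOF. Capsule and fibroblast markers were called lower for 6 of 6 genes in males and 5 of 6 in females, with sums of 913 to 2447 CPM in male controls, 370 to 437 CPM in male GOF, 635 to 721 CPM in female controls and 171 to 356 CPM in female GOF. Adipocyte markers were called lower for 7 of 7 genes in males and 6 of 7 in females, with sums of 1797 to 3309 CPM in male controls, 248 to 300.3 CPM in male GOF, 1447 to 1703 CPM in female controls and 361 to 726 CPM in female GOF. Mitochondrial transcripts took 4.09 to 5.33% of counts in male controls and 2.92 to 3.77% in male GOF, and 3.55 to 4.47% in female controls and 1.75 to 2.93% in female GOF, without overlap in either sex. The part of these measures in the Jun values was not tested.

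An antisense gene, Junos, overlaps Jun exons on the plus strand and the strand setting of the counting was not given in the sources used here, so reads from the shared stretch cannot be assigned with certainty. Junos had 32 to 109 counts in a library, against 3692 to 24109 for Jun. It was called higher in male GOF than male control (0.78 ± 0.239 (SE), adjusted p = 0.0189 by edgeR) and in male than female GOF (0.67, adjusted p = 0.0449). In controls its log2 fold change between the sexes was 0.06 (adjusted p = 0.883 by edgeR), where that of Jun was 1.23. Junb overlaps Prdx2 exons on the other strand in the same way, and Prdx2, at 9996 to 12597 counts, was called in none of the 5 comparisons.

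**Figure D2:**
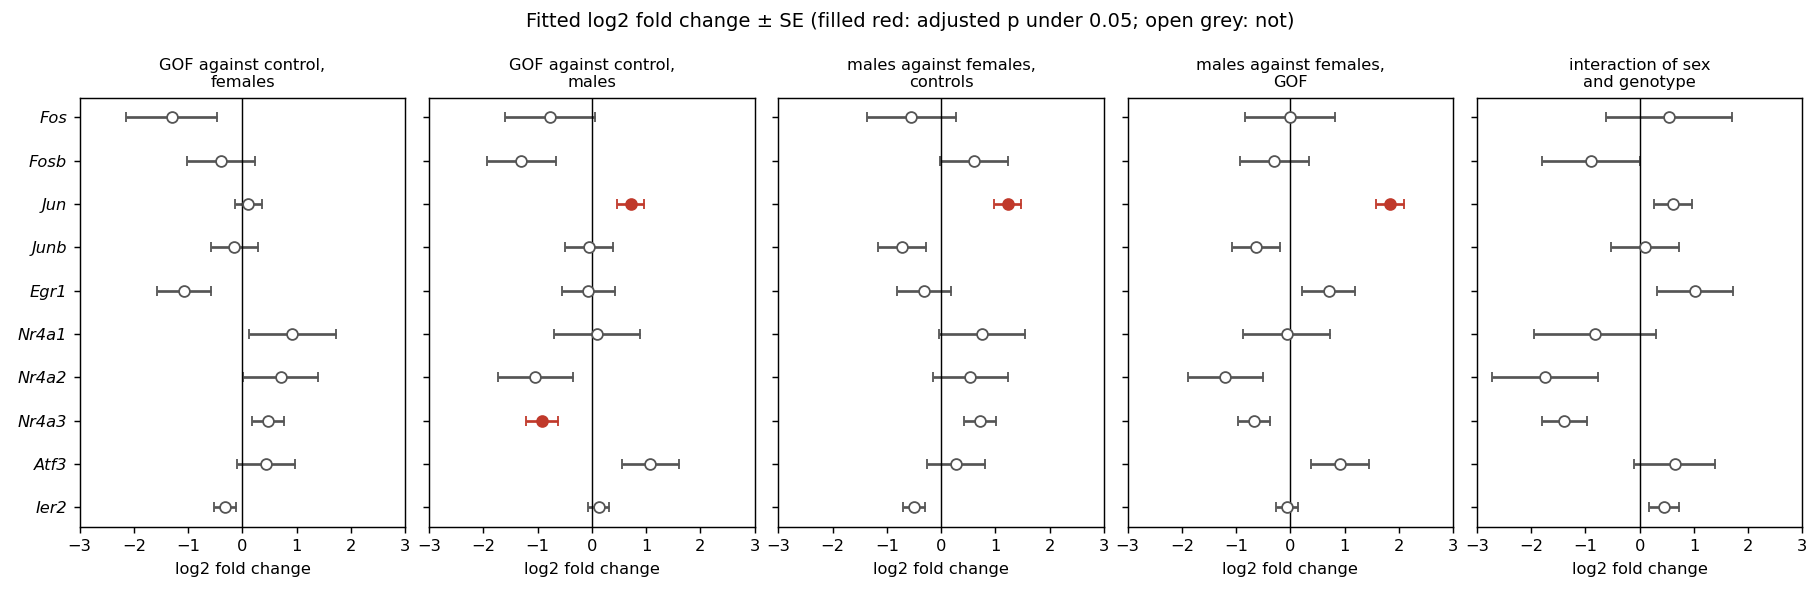
Log2 fold change with its SE for the 10 genes in the 5 comparisons, fitted by edgeR on all 16 libraries, with filled red points past an adjusted p of 0.05. The 4 red points are Jun in 3 comparisons and Nr4a3 in male GOF against control.

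Nr4a3 was lower in male GOF glands. Nr4a3 (chr4:48045153-48086447, plus strand) encodes NOR1, which lay between the other NR4A receptors in level per length, below Nr4a1 and above Nr4a2. In male controls it stood at 85.4, 54.8, 94.2 and 61.0 CPM and in male GOF at 30.1, 59.3, 38.7 and 28.2 CPM. Male GOF 2 at 59.3 CPM lay above male control 2 at 54.8 CPM, and the other GOF libraries lay below all controls. The log2 fold change was -0.92 ± 0.295 (SE), with means of 39.1 ± 14.2 and 73.8 ± 18.9 (SD, n = 4 each) CPM and an adjusted p of 0.0246 by edgeR. The call was lost without male control 1 (-0.84), male control 3 (-0.78), male GOF 1 (-0.83), male GOF 3 (-0.93) or male GOF 4 (-0.81), with adjusted p-values of 0.0533 to 0.0734, without a filter (-0.90, adjusted p = 0.0718), and by limma on log2(FPKM + 1) without a filter (-0.78, adjusted p = 0.0620). Within ranges of animal numbers the difference in mean log2 CPM was -0.85 (2 GOF and 3 controls) and -0.89 (2 GOF and 1 control). The lower medulla, capsule and fibroblast and adipocyte markers, the higher macrophage markers and the lower mitochondrial share of male GOF, given above, moved with it, and their part was not tested.

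In female glands Nr4a3 did not pass in either direction. It stood at 41.4, 38.8, 51.7 and 47.3 CPM in controls and at 57.2, 103, 52.3 and 36.9 CPM in GOF, so 3 of 4 GOF libraries lay above every control and the fourth below all of them. The fitted difference, 0.48 ± 0.293 (SE) on the log2 scale, had an adjusted p of 0.214 by edgeR. The GOF effect in males minus that in females was -1.39 ± 0.416 (SE), the lowest p among the 10 genes for that difference, at 0.0045 unadjusted and 0.0752 adjusted by edgeR. By DESeq2 it passed (-1.36, adjusted p = 0.0211), and by edgeR it passed without male GOF 2 (-1.65, adjusted p = 0.0299). Of all tested genes 4.21% were called for this difference (1.59% higher and 2.61% lower), and none of the 10 was called, with 1 at an unadjusted p under 0.05 and 1 called by DESeq2. Adipocyte markers were called lower for the same difference in 4 of 7 genes by edgeR and 5 of 7 by DESeq2, with a median of -1.83, and their part was not tested.

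Nr4a1 and Nr4a2 were not called in any comparison, and their libraries spread widely within each group. Nr4a1 (chr15:101254269-101274795), also called NUR77, stood at 186, 222, 435 and 41.4 CPM in female controls and at 114, 958, 539 and 55.4 CPM in female GOF. In males it stood at 307, 531, 107 and 545 CPM in controls and at 596, 434, 231 and 326 CPM in GOF. The range within female GOF was 17.3-fold and within female controls 10.5-fold, wider than any difference between group means, which ran from 221 to 417 CPM. The log2 fold change of GOF against control was 0.91 ± 0.802 (SE) in females and 0.09 ± 0.795 (SE) in males (adjusted p = 0.388 and 0.944 by edgeR). Nr4a2 (chr2:57106830-57124003), also called NURR1, stood at 3.39, 38.9, 7.92 and 3.63 CPM in female GOF and between 4.08 and 18.2 CPM in the controls of both sexes. Without female GOF 2 its log2 fold change in females turned from 0.70 to -0.78, neither being called. In males Nr4a2 had -1.04 ± 0.694 (SE), and the 4 GOF libraries, at 4.41 to 9.04 CPM, overlapped the controls.

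In females none of the 10 genes was called between GOF and control, where 39.6% of all tested genes were, 19% higher and 20.6% lower. In males 2 of 10 were called, Jun higher and Nr4a3 lower, where 36.9% of all tested genes were, 15.2% higher and 21.8% lower. Groups did not overlap for 37.8% of all genes in females and 33.1% in males. The median log2 fold change of the 10 genes was -0.02 in females and -0.06 in males, beside 0.05 and 0.01 over all tested genes. In females 1 gene had an unadjusted p under 0.05, Egr1, and DESeq2 called that gene (-1.11, adjusted p = 0.0427).

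Egr1 (chr18:34859823-34864984) stood at 35.4, 102, 71.8 and 15 CPM in female controls and at 17.0, 33.9, 39.1 and 15.3 CPM in female GOF. The lowest control lay below every GOF library, and the log2 fold change of -1.09 ± 0.498 (SE) missed the threshold (adjusted p = 0.0982 by edgeR). Without female control 4, the library at 15 CPM, it was -1.40 and passed (adjusted p = 0.0207). In males the means were 44.9 ± 21.4 and 42.9 ± 10 (SD, n = 4 each) CPM, a log2 fold change of -0.07 ± 0.491 (SE).

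Fos, Fosb and Junb were not called in any comparison with all 16 libraries, and single libraries moved their values. Fos (chr12:85473890-85477273) stood at 3.77, 24.4, 9.76 and 2.11 CPM in female controls and at 1.43, 2.54, 11.1 and 1.09 CPM in female GOF. In males it stood at 15, 2.87, 5.90 and 3.59 CPM in controls and at 5.46, 2.34, 5.76 and 2.48 CPM in GOF. The groups overlapped throughout, with log2 fold changes of GOF against control of -1.31 ± 0.836 (SE) in females and -0.77 ± 0.83 (SE) in males (adjusted p = 0.231 and 0.50 by edgeR). Without female GOF 3, the library at 11.1 CPM, Fos passed in females (-2.60, adjusted p = 0.0278). Junb (chr8:84974484-84978718), an AP-1 subunit that often acts against c-Jun, held 37.9, 30.0, 136 and 37.0 CPM in female GOF, and without the same library it passed as well (-0.97, adjusted p = 0.0275). Fosb (chr7:19302696-19310051) ranged from 0.515 to 5.66 CPM over all libraries and had -1.30 ± 0.64 (SE) in males (adjusted p = 0.126 by edgeR).

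Atf3 and Ier2 were not called by edgeR with all 16 libraries either. Atf3 (chr1:191170296-191218039), a stress-responsive factor of the ATF/CREB family, stood at 17.3, 1.83, 4.23 and 4.32 CPM in male GOF and between 1.86 and 5.91 CPM in the other 12 libraries. The high library was male GOF 1, which also held the highest macrophage marker sum (1808 CPM, others of its group at most 758 CPM); its part was not tested. With all libraries Atf3 had 1.08 ± 0.53 (SE) in males (adjusted p = 0.124 by edgeR). Without male GOF 1, the high library, the value was 0.058 (adjusted p = 0.921), and without male GOF 2, the lowest, it was 1.38 and passed (adjusted p = 0.0370). Ier2 (chr8:84661331-84662852) had the narrowest spread, from 27.0 to 30.3 CPM in male controls and from 25.5 to 53.0 CPM in female controls. Its sex difference in controls passed without female control 4 (-0.68, adjusted p = 0.0134), and in females its GOF difference passed without female control 4 (-0.49) or female GOF 3 (-0.53).

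The spread among mice of 1 group was wide for these genes. The SD of log2 CPM within groups had a median of 0.784 over the 10 genes, against 0.267 over the 18214 tested genes and 0.186 over the 12904 tested genes in the same range of mean levels. All 10 lay above the median of all genes, and 6 lay above the 90th percentile of 0.752. Nr4a1 had the largest value at 1.35, then Fos at 1.24, Nr4a2 at 1.02, Fosb at 0.959, Egr1 at 0.788 and Atf3 at 0.780. Junb at 0.650, Nr4a3 at 0.443, Jun at 0.380 and Ier2 at 0.308 were lower, and the only genes that edgeR called with all 16 libraries, Jun and Nr4a3, were among these 4. Egr1, which DESeq2 called in female GOF, was not.

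**Figure D3:**
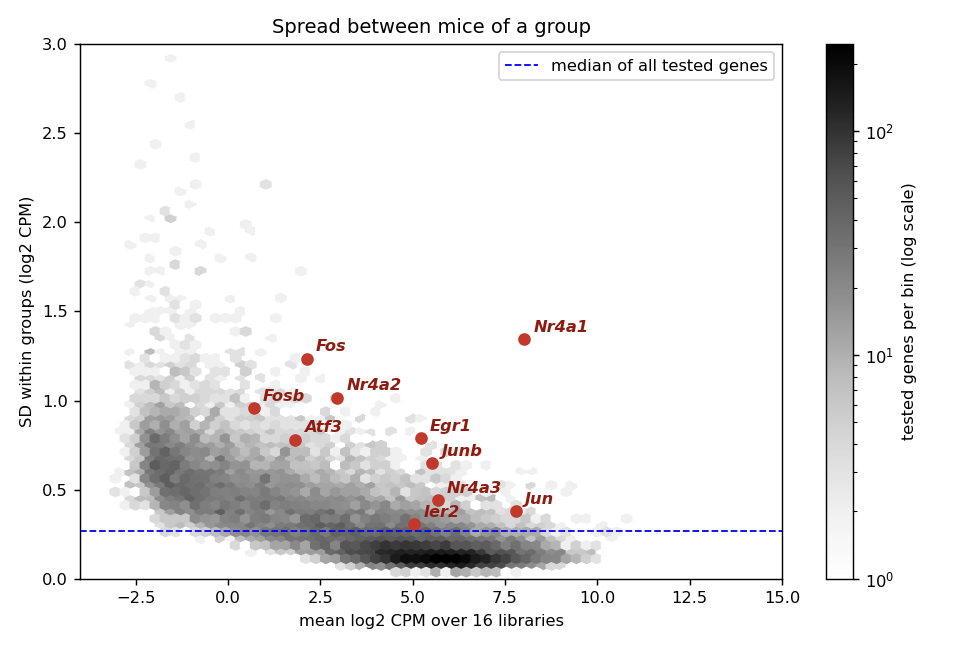
SD of log2 CPM within groups against mean log2 CPM for all tested genes (grey, darker with more genes; 30 genes above the axis end of 3 are not shown) and the 10 genes (red). All 10 lie above the dashed median, and Nr4a1 stands far above genes of its level.

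Some of these genes were lowest, or highest, together in the same library of a group. Female control 4 was the lowest of its group for 6 genes (Fos, Junb, Egr1, Nr4a1, Nr4a2 and Ier2), female GOF 4 for 6 (Fos, Fosb, Egr1, Nr4a1, Nr4a3 and Ier2) and male control 2 for 6 (Fos, Fosb, Jun, Nr4a2, Nr4a3 and Ier2). Female control 3 lay above its group's mean for all 10 genes. The highest values split between pairs of libraries: female control 2 led in Fos, Fosb, Egr1, Atf3 and Ier2 and female control 3 in Jun, Junb and the 3 NR4A genes. In female GOF, library 2 led in Fosb, Jun and the 3 NR4A genes and library 3 in Fos, Junb, Egr1, Atf3 and Ier2. Summed heat shock transcripts were highest in female control 2 (2776 CPM, others of its group at most 2314), female GOF 2 (2482, at most 2272) and male control 1 (2850, at most 1976), and male GOF spanned 1433 to 1697 CPM. The library at 2272 CPM was female GOF 4, lowest of its group for 6 genes. Male control 3, highest of its group for 5 genes, had the lowest heat shock sum there, 1634 CPM. The part of these transcripts in the deviations was not tested. The time of day and the interval before freezing were not given in the sources used here.

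**Figure D4:**
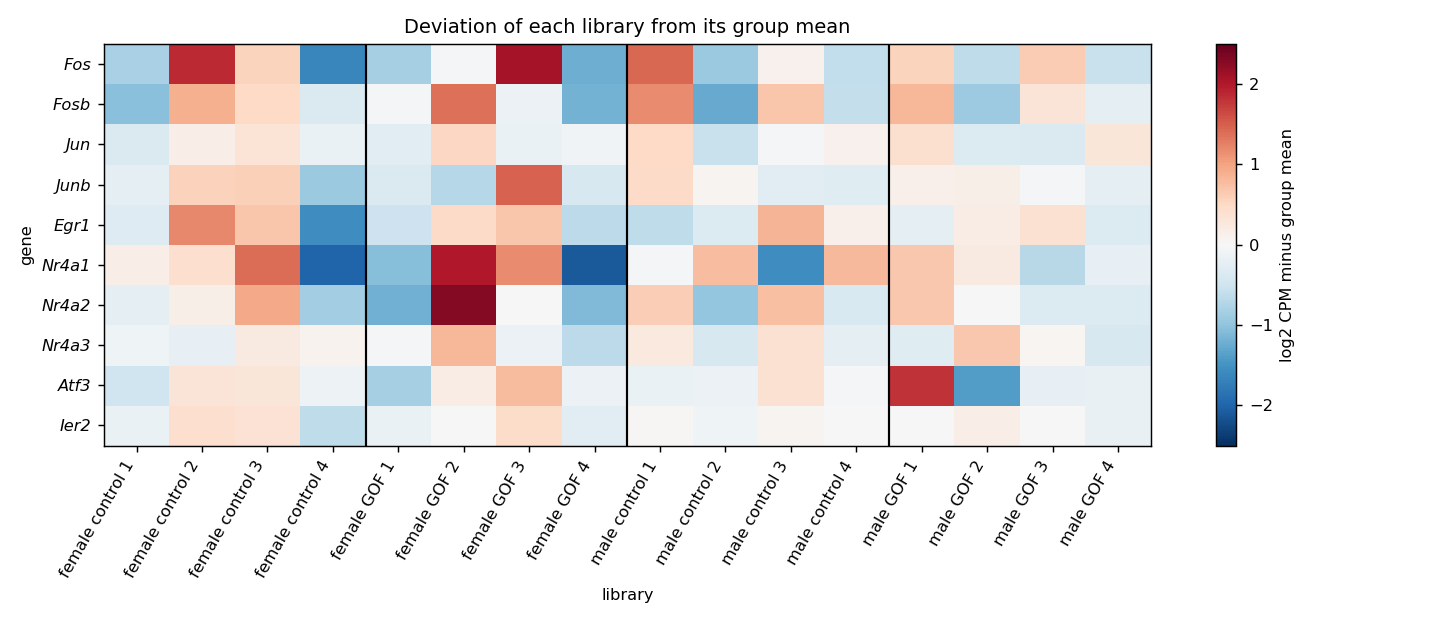
Log2 CPM of each library minus the mean of its group, for the 10 genes (rows) and 16 libraries (columns), with red above and blue below the mean. Female control 4 and female GOF 4 are blue in most rows, and the highest values in female GOF split between libraries 2 and 3.

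Of 45 pairs of these genes, 43 had a positive Pearson correlation of their deviations over the 16 libraries, with a median r of 0.452 and a range of -0.259 to 0.878. All values in a pair share the same libraries and scaling, and no values for pairs of other genes are given beside these. By an exact permutation test within groups, 6 pairs passed after Benjamini-Hochberg adjustment over the 45 by Pearson's r and 0 by Spearman's rho, whose lowest adjusted p was 0.0569. Egr1 and Ier2 had r = 0.878 and rho = 0.797, with exact permutation p-values of 0.000353 and 0.00135 (adjusted 0.0159 and 0.0569), and r = 0.750 without the 2 libraries farthest from the median of Egr1. Fos and Ier2 had r = 0.822 (exact permutation p = 0.00187, adjusted 0.0422; rho = 0.791), and Fos and Junb r = 0.815 (exact permutation p = 0.00600, adjusted 0.0450; rho = 0.715). The other 3 pairs joined Fosb, Jun and Nr4a2: r was 0.742 for Fosb and Jun, 0.757 for Fosb and Nr4a2 and 0.697 for Jun and Nr4a2, each with an exact permutation adjusted p of 0.0450. Without the 2 farthest libraries these 5 values were 0.686, 0.680, 0.611, 0.668 and 0.581. The pairs with r below 0 were Nr4a3 with Atf3 (-0.259) and Nr4a3 with Junb (-0.103).

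The 10 tested genes outside the set whose deviations were most like the mean scaled deviation of the set, among 14816 genes with a mean of at least 1 CPM, were Cdkn2aip, Btg2, Gpr180, Cldnd1, 2510039O18Rik, Edem2, Itgb1bp1, Phlda1, Ankrd9 and Sac3d1, with r of 0.915 to 0.853 over 16 libraries. Btg2, itself an immediate early gene with antiproliferative activity, had r = 0.896 and an SD within groups of 0.275. Btg2 was called lower in GOF in females (-0.87 ± 0.181 (SE), adjusted p = 0.00163 by edgeR). In males it had -0.54 (adjusted p = 0.0279 by edgeR), a call lost in 5 of the 16 fits without 1 library and without the 3 libraries with liver or kidney transcripts (-0.55, adjusted p = 0.0687).

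Among 13 other genes of the AP-1 family, all of them tested, Fosl2 was called in both comparisons of genotype and in both of sex. Fosl2 (chr5:32135801-32157842), which encodes FRA-2, stood at 935 ± 70.9 CPM in female controls and 1677 ± 73.8 CPM in female GOF, and at 449 ± 59.6 CPM in male controls and 1034 ± 145 CPM in male GOF (SD, n = 4 each). The 4 groups stood apart in each comparison, with log2 fold changes of GOF against control of 0.84 ± 0.111 (SE) in females and 1.2 ± 0.112 (SE) in males (adjusted p = 4.55e-05 and 1.92e-06 by edgeR). Males were lower than females by -1.06 ± 0.112 (SE) in controls and -0.70 ± 0.111 (SE) in GOF (adjusted p = 1.43e-05 and 0.000323 by edgeR). Jun was thus higher and Fosl2 lower in males, and per length Fosl2 stood at 231, 432, 112 and 279 FPKM where Jun stood at 39.1, 44.1, 92.8 and 165 FPKM, in the order female control, female GOF, male control and male GOF. Of the 13 genes, Fosl2 alone was called higher in female GOF by edgeR, with 2 at an unadjusted p under 0.05, while DESeq2 called 1 higher and 2 lower. In male GOF 1 was called higher and 2 lower, the latter Maff (-1.30 ± 0.292 (SE)), a small MAF protein, and Atf2 (-0.23), whose call was lost on FPKM values and without a filter. These counts are shares of 7.69% and 23.1%, against 39.6% and 36.9% of all genes. Between the sexes 2 were called higher and 1 lower in male controls, and 2 higher and 2 lower in male GOF, shares of 23.1% and 30.8% against 23.4% and 29.6% of all genes. Batf3 was among the higher ones in both (1.64 and 1.37, from means of 0.650 and 2.04 CPM in controls and 0.451 and 1.17 CPM in GOF); without the 3 libraries with liver or kidney transcripts its call in controls was lost (1.88).

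**Figure D5:**
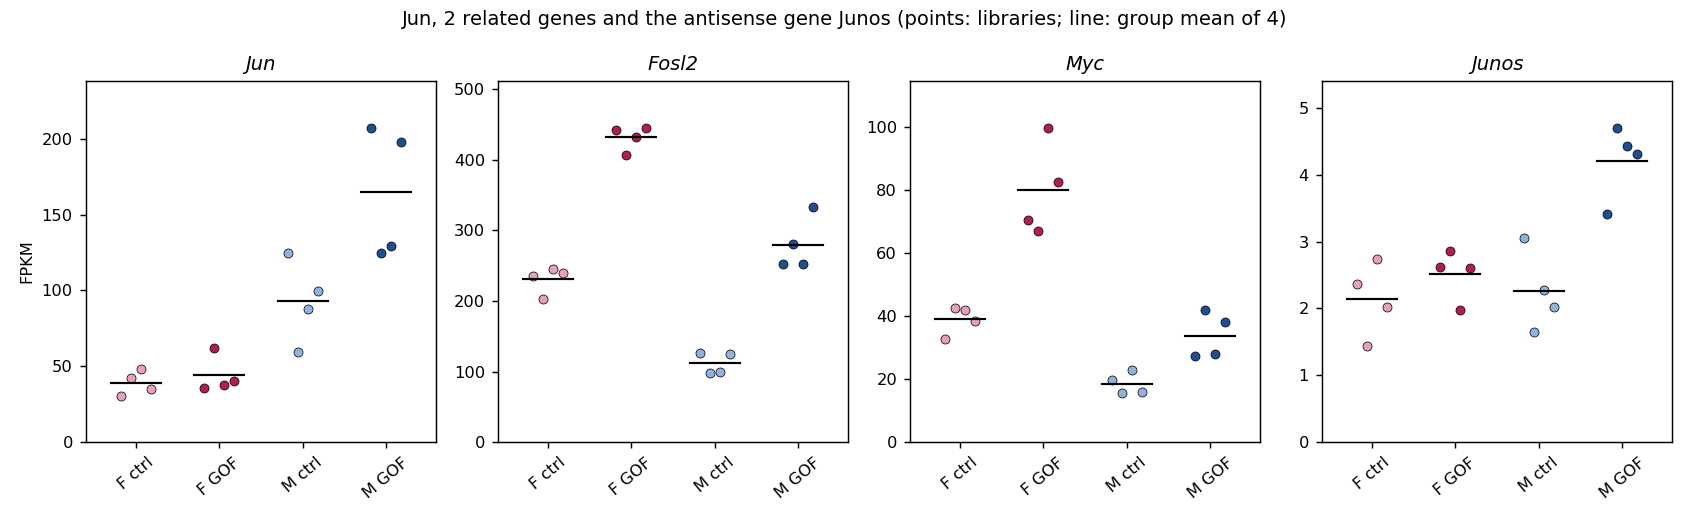
FPKM of Jun, Fosl2, Myc and the antisense gene Junos, 1 point per library with a line at the group mean, on axes that start at 0 and differ between panels. Jun is higher in males, whereas Fosl2 and Myc are lower in males and higher in GOF of either sex.

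Of the EGR relatives and NAB corepressors, 4 of 5 were tested. In female GOF 0 were called by edgeR and by DESeq2, with 0 at an unadjusted p under 0.05. In male GOF Nab1 was called lower (-0.25), a call lost with upper-quartile scaling (-0.18), without a filter (-0.22) and on FPKM values (-0.13). All genes were called at 39.6% and 36.9% in these comparisons. Between the sexes 2 of 4 were called in controls and 3 of 4 in GOF, against 23.4% and 29.6% of all genes. Nab2, which binds EGR proteins and represses through them, was higher in males in controls (0.66 ± 0.129 (SE), adjusted p = 0.00216 by edgeR) and in GOF (0.82 ± 0.129 (SE), adjusted p = 0.000292). Egr3 was higher in male than female GOF (2.36 ± 0.609 (SE), adjusted p = 0.0089 by edgeR), from 0.582 ± 0.285 to 3.03 ± 2.24 CPM (SD, n = 4 each) with overlapping groups.

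Among 34 tested other immediate early genes, 1 was called higher and 7 lower in female GOF, a share of 23.5% against 39.6% of all genes, and 2 higher and 2 lower in male GOF, 11.8% against 36.9%. Their median log2 fold change was -0.33 in females and -0.04 in males. Myc, a growth-promoting transcription factor and known WNT target, was higher in GOF in both sexes (0.98 ± 0.177 (SE) in females and 0.75 ± 0.178 (SE) in males; adjusted p = 0.000594 and 0.00424 by edgeR) and lower in males (-1.09 in controls and -1.31 in GOF). Sgk1, a serum- and steroid-induced kinase, was higher in male GOF (0.70 ± 0.115 (SE), adjusted p = 0.000271 by edgeR). Dusp5, a phosphatase of ERK, was lower in female GOF (-1.60), a call lost without female control 3 (-0.92, adjusted p = 0.0506) and without the 3 libraries with liver or kidney transcripts (-0.88). Between the sexes 3 were higher and 2 lower in male controls, a share of 14.7% against 23.4% of all genes. In male GOF 10 were higher and 2 lower, where 13.3% and 16.3% of all genes were called in those directions. Plk2 and Plk3, stress-responsive polo-like kinases, were among the 10 (1.06 ± 0.198 (SE) and 1.22 ± 0.328 (SE)).

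Of 21 upstream regulators, 4 were called higher and 2 lower in female GOF, and 2 higher and 2 lower in male GOF, shares of 28.6% and 19.0% against 39.6% and 36.9% of all genes. Crtc3, a coactivator of CREB, was higher in both sexes (0.90 ± 0.0822 (SE) and 0.62 ± 0.0819 (SE); adjusted p = 2.43e-06 and 3.93e-05 by edgeR), and Crtc1, of the same family, by 0.41 and 0.30. Of the catalytic subunits of protein kinase A, Prkaca was called lower in female GOF (-0.34 ± 0.0841 (SE)) and Prkacb in male GOF (-0.45 ± 0.0933 (SE)). For the difference between the male and female GOF effects, 0 of the 21 genes were called by edgeR, so these effects are not shown to differ. Between the sexes 1 was higher and 4 lower in male controls and 3 higher and 3 lower in male GOF, shares of 23.8% and 28.6% against 23.4% and 29.6% of all genes, with Atf1, a CREB relative, lower in both (-0.39 and -0.45), calls that were lost with the range of animal numbers as a covariate.

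Of 6 adrenal genes known to respond to NR4A factors, 1 was called higher and 2 lower in female GOF, and 1 higher and 3 lower in male GOF, shares of 50% and 66.7% against 39.6% and 36.9% of all genes. Cyp11b2, the aldosterone synthase, was at 231 ± 60.8 CPM in female controls and 26.5 ± 10.2 CPM in female GOF, and at 250 ± 116 and 51.2 ± 21.0 CPM in males (SD, n = 4 each). The log2 fold changes were -3.12 ± 0.424 (SE) and -2.29 ± 0.409 (SE) (adjusted p = 6.75e-05 and 0.000565 by edgeR), and of the NR4A genes Nr4a3 was called lower in males and none was called in females. Hsd3b1, an enzyme of steroid synthesis, was higher in female GOF (0.89 ± 0.208 (SE), adjusted p = 0.00348 by edgeR). In males Hsd3b1 had 0.61, a call lost in 4 of the 16 fits without 1 library, down to 0.41 without male GOF 2. It was also lost in a fit of the male groups alone (0.61, adjusted p = 0.109 by edgeR) and without the 3 libraries (0.60). Star, which brings cholesterol into mitochondria, was lower in female GOF (-0.78 ± 0.21 (SE)), a call lost without the same 3 libraries (-0.73, adjusted p = 0.0664). Hsd3b6 was lower in male GOF (-2.09 ± 0.609 (SE)), a call lost by edgeR in a fit of the male groups alone (-2.08, adjusted p = 0.0647) and without a filter (-2.06, adjusted p = 0.0512). In the difference between the male and female GOF effects, 0 of the 78 tested genes of these 5 lists were called by edgeR, with 6 at an unadjusted p under 0.05 and 1 called by DESeq2.

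Of 8 heat shock genes, often raised by tissue handling, 1 was called higher and 1 lower in female GOF. In male GOF 0 were called by edgeR and by DESeq2, with 1 at an unadjusted p under 0.05. The shares were 25% and 0%, against 39.6% and 36.9% of all genes. Hspa1a was higher in female GOF (1.06 ± 0.301 (SE), adjusted p = 0.0121 by edgeR), a call lost without female GOF 2 (0.80, adjusted p = 0.0598) and without the 3 libraries with liver or kidney transcripts (1.02). Hspb1, a small heat shock protein, was higher in males in controls (1.65 ± 0.217 (SE)) and in GOF (1.68 ± 0.217 (SE), adjusted p = 0.000106 and 7.11e-05 by edgeR), the comparisons in which Jun differed. Between the sexes 1 of the 8 was called higher and 1 lower in male controls, and 1 higher and 2 lower in male GOF, shares of 25% and 37.5% against 23.4% and 29.6% of all genes, with medians of 0.20 and -0.42. The part of these genes in the Jun difference was not tested.

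With the range of animal numbers as a covariate, 11 of the 14 related genes named between the sexes in controls and 15 of the 20 named in GOF lost their call. Fosl2 and Hspb1 kept theirs in both genotypes, and Jun passed in both as well. Only the lowest range held both sexes, with 1 female of each genotype, so sex and range can hardly be told apart in these fits. A call lost there does not tell which of them the difference went with. Among those lost were Myc (-0.80), Nab2 (0.56) and Atf1 (-0.28) in controls and Egr3 (1.86), Plk2 (0.79), Atf1 (-0.30) and Batf3 (1.81) in GOF. Other genes picked by the naming rule also lost their call with this covariate. They were Jdp2 (0.60), Ier5l (0.87) and Plk2 (0.71), called higher in male controls without it, Socs3 (-0.91), called lower there, and Elk3 (0.50) and Cyp21a1 (-1.08), called higher and lower in male GOF. With it the adjusted p by edgeR was 0.0612 for Jdp2, 0.104 for Ier5l, 0.252 for Plk2, 0.433 for Socs3, 0.176 for Elk3 and 0.167 for Cyp21a1. Without the 3 libraries with liver or kidney transcripts, the calls in controls of Jdp2 (0.60, adjusted p = 0.0899), Plk2 (0.52, adjusted p = 0.264) and Socs3 (-0.69, adjusted p = 0.257) were lost too.

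The naming rule picked further related genes, whose calls by edgeR were often lost when 1 of the 16 libraries was left out. In female GOF, Hspe1, a mitochondrial chaperonin subunit, was called lower (-0.64), a call lost in 5 of the 16 fits and without the 3 libraries with liver or kidney transcripts (-0.57, adjusted p = 0.127). Mapk9, which encodes the kinase JNK2, was called lower there as well (-0.27), in all 16 fits. Its call was lost by limma on log2(FPKM + 1) without a filter (-0.20, adjusted p = 0.0796). In male GOF, Klf4, a zinc finger factor, was called lower (-0.95), a call lost in 3 of the 16 fits and without the 3 libraries (-1.01, adjusted p = 0.0576), and Rps6ka3, an ERK-activated kinase, was called lower (-0.21). The Rps6ka3 call was lost in 3 of the 16 fits, with upper-quartile factors (-0.14, adjusted p = 0.149), without a filter (-0.18), with the male groups alone (-0.20) and on log2(FPKM + 1) (-0.087, adjusted p = 0.383). In male controls Crtc1 was called higher (0.31) and Nab1 (-0.22), Prkaca (-0.34) and Hspe1 (-0.66) lower than in females. All 4 lost their call with the range of animal numbers as a covariate, and those of Crtc1 (0.31, adjusted p = 0.0616), Nab1 (-0.27, adjusted p = 0.0941) and Hspe1 (-0.59, adjusted p = 0.213) were lost without the 3 libraries. In male GOF Batf (0.97) and Crtc1 (0.20) were called higher than in females. Lower there were Nab1 (-0.41), Atf2 (-0.18), Socs3 (-0.93), Crtc3 (-0.28) and Mc2r (-0.88), the ACTH receptor. So were Hspa1a (-1.08) and Hspa1b (-0.71), a pair of near-identical genes whose shared reads cannot be assigned with certainty. These 9 calls were lost with the same covariate, and leaving out 1 library ended that of Atf2 in 12 of the 16 fits, Hspa1b in 10, Mc2r in 5, Batf, Crtc1 and Socs3 in 4 each, Crtc3 in 3 and Hspa1a in 1, without female GOF 2 (-0.85, adjusted p = 0.0546). Without the 3 libraries, Crtc1 (0.20, adjusted p = 0.0612), Atf2 (-0.18, adjusted p = 0.0797) and Hspa1b (-0.71, adjusted p = 0.0526) were not called in GOF. In GOF the Atf2 call was also lost by DESeq2 (-0.16) and on log2(FPKM + 1) (-0.10), that of Hspa1b with upper-quartile factors (-0.65) and on log2(FPKM + 1) (-0.56), and that of Crtc3 with upper-quartile factors (-0.22) and on log2(FPKM + 1) (-0.21). Without a filter the calls of Hspe1 in both comparisons, Klf4, Socs3 in controls, Btg2 in males, Batf, Mc2r and Crtc1 in GOF were lost as well.

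Male and female comparisons of genotype share no library, but each comparison of sex shares 1 group of 4 libraries with each comparison of genotype.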

How the data were processed

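RNA-seq libraries of adrenal glands from 16 mice (4 groups of 4) were analysed. The deposited counts are whole reads per Ensembl gene, and the authors' FPKM values scale them to gene length and library total; the length implied was constant within 0.1% for 100% of 20938 genes checked. Bowtie2 2.2.3, TopHat2 2.0.12, HTSeq 0.6.1 and DESeq 1.18.0 are named, per the submitters' processing notes. The genome build, annotation and strand setting are not given in the sources used here. Symbols and coordinates come from GENCODE M21 (GRCm38), which holds 54723 of the 54838 identifiers, and promoter windows from RefSeq (GRCm38.p6).

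Counts were scaled with TMM factors, filtered with filterByExpr (18214 genes kept) and fitted with edgeR 4.0.16 (robust quasi-likelihood) on all 16 libraries with 1 mean per group, with Benjamini-Hochberg adjustment over all tested genes and a threshold of 0.05. The steps were tested on simulated data. Log2 fold changes come from this fit, and an SE is the fold change divided by the square root of F. P-values cover the spread between these mice only. Spread and correlations use log2 CPM with a prior count of 2. Replicates are numbered in accession order, so numbers pair no libraries.

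All 10 members were named, and from each list of related genes the up to 2 highest and 2 lowest log2 fold changes past the threshold in each comparison, among genes whose mean reached 1 CPM in either group. Members, lists and this rule were chosen with earlier results of these data known. Alternatives used DESeq2 1.42.0, limma 3.58.1 on log2(FPKM + 1) or log2(FPKM + 0.1), other scaling, filters and libraries, and the range of animal numbers in the sample titles. Correlations on FPKM and without 3 libraries were added after seeing the data. R 4.3.3 and Python 3.11.15 were used.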

Additional observations from a re-analysis of the deposited data

Results flagged for a closer look

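A library was listed when its gap to the nearest other library of its group, divided by the group's range in CPM, exceeded Dixon's critical value for 4 libraries. This held in 5 of 40 groups of the 10 genes. Chance flags about 1 in 20 groups of normally distributed, independent values, but CPM values are skewed and the groups share libraries, so that rate is no yardstick here. On log2 CPM, a scale added after seeing the data, only Junb of these 5 exceeded the value (0.846), while Fos was at 0.640, Jun at 0.789, Nr4a2 at 0.654 and Atf3 at 0.620. In CPM, all but 1 of the 5 were in female GOF. Fos was at 11.1 CPM in female GOF 3 against 1.09 to 2.54 CPM in the others, and Junb was at 136 CPM in the same library against 30.0 to 37.9 CPM. Jun was at 195 CPM in female GOF 2 against 114 to 128 CPM, and Nr4a2 at 38.9 CPM in that library against 3.39 to 7.92 CPM. Atf3 was at 17.3 CPM in male GOF 1 against 1.83 to 4.32 CPM.

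Among the related genes named, 10 of 144 groups held such a library. On log2 CPM 9 of these 10 exceeded the value, the exception being Dusp5 in female controls (0.818). In female controls these were Dusp5 at 34.1 CPM in library 3 (others at most 10.8) and Plk2 at 32.0 CPM in library 2 (others at most 24.6). In female GOF 2, Fosl2 was lowest at 1567 CPM (others at least 1705) and Hspa1a highest at 18.6 CPM (others at most 11.4). In male control 1, Dusp5 was at 12.4 CPM (others at most 7.37) and Star at 16059 CPM (others at most 9885), and Mapk9 was at 133 CPM in male control 2 (others at most 104 CPM). In male GOF, Hsd3b1 was at 14945 CPM in library 2 (others at most 9872), Elk3 was lowest there at 45.7 CPM (others at least 55.6), and Ier5l was highest in library 1 at 19.7 CPM (others at most 16.4).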

How the results depend on the processing

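The number of the 10 genes called was 0 in female GOF, 2 in male GOF, 1 between the sexes in each genotype and 0 for the difference of GOF effects. By DESeq2 it was 1 in female GOF, 2 between the sexes in controls and 1 for the difference of effects. In male GOF it was 0 with no filter or with an absolute log2 fold change of at least 1, and 1 with the male groups alone, with log2(FPKM + 1) and no filter, with the animal-number covariate or without the 3 libraries with liver or kidney transcripts. Between the sexes in controls it was 2 with only those groups fitted. Leaving out 1 library gave 0 to 3 in female GOF, 0 to 3 in male GOF, 1 to 2 between the sexes in controls, 1 to 2 in GOF and 0 to 1 for the difference of effects. The cause was not tested, beyond more genes (no filter) or fewer libraries entering the fit.

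Outside the fits without 1 library, 33 log2 fold changes of members changed sign, none of them called. With the animal-number covariate, Fosb (0.046) and Junb (0.020) did so in female GOF, Junb (0.040) in male GOF, Fos (1.10) and Egr1 (0.43) between the sexes in controls, and Fos (1.48), Fosb (0.56), Nr4a1 (0.71), Nr4a2 (0.026) and Ier2 (0.14) in GOF. Between the sexes this covariate leaves only the lowest range, with 1 female of each genotype, to compare males and females directly. With upper-quartile factors, Junb (0.020) and Egr1 (0.0068) did so in male GOF and Fos (0.073) and Ier2 (0.0064) between the sexes in GOF. On log2(FPKM + 1), filtered or not, the values were 0.091 for Junb and 0.12 for Egr1 in male GOF, and 0.35 for Fos, 0.71 for Nr4a1 and 0.033 for Ier2 between the sexes in GOF. On log2(FPKM + 0.1) they were 0.093, 0.13, 0.55, 0.71 and 0.035. Fos in GOF was also above 0 with DESeq2 (0.0061), RLE factors (0.0093) and at least 10 counts in every library (0.047). Junb for the difference of effects was -0.0087 without the 3 libraries.

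Leaving out 1 library at a time, these members crossed 0, none called after the sign change. In female GOF the range was -0.14 to 0.23 for Jun, -0.97 to 0.048 for Junb and -0.78 to 1.11 for Nr4a2. In male GOF it was -0.15 to 0.14 for Junb, -0.25 to 0.29 for Egr1 and -0.22 to 0.33 for Nr4a1. Between the sexes in controls it was -1.28 to 0.39 for Fos and -0.68 to 0.14 for Egr1. In GOF it was -0.31 to 1.25 for Fos, -0.63 to 0.42 for Fosb, -0.84 to 0.16 for Junb, -0.42 to 0.77 for Nr4a1, -1.52 to 0.25 for Nr4a2, -0.075 to 1.26 for Atf3 and -0.14 to 0.13 for Ier2. For the difference of effects it was -0.40 to 1.81 for Fos, -0.10 to 0.90 for Junb, -1.39 to 0.027 for Nr4a1 and -0.33 to 0.996 for Atf3.

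FPKM scaling moved the median of all genes in male GOF by 0.12 (pseudocount 0.1), where Jun was 0.84 and Nr4a3 -0.82. The share of calls that were higher was 48.0% in female GOF, 41.1% in male GOF, 44.9% between the sexes in GOF and 37.9% for the difference of effects. On log2(FPKM + 1) it was 60.7%, 61.3%, 53.6% and 48.8%, and with upper-quartile factors 42.7%, 51.2%, 55.2% and 62.6%, where the last came with a shift of 0.10; with RLE factors the last was 48.5%. The 6 correlations that passed were 0.624 to 0.888 on log2(FPKM + 0.1) and without the 3 libraries, both chosen after seeing the data. Requiring an absolute log2 fold change of at least 1 lowered the count of all genes called from 7217 to 3121 in female GOF, 6725 to 3366 in male GOF, 4267 to 1405 between the sexes in controls, 5394 to 1814 in GOF and 766 to 381 for the difference of effects. With the animal-number covariate, where only the lowest range held both sexes, the counts between the sexes were 1311 in controls and 1336 in GOF. For the difference of effects 442 genes were called with it. Without the 3 libraries the counts were 4554 in female GOF, 1648 between the sexes in controls and 175 for the difference of effects, where DESeq2 called 1432, no filter gave 408 and FPKM with no filter 407. No paired analysis was possible because the labels carry no replicate numbers. Groups of 4 and low counts of Fosb, Fos and Atf3 limit what could be detected, and a gene not called is not shown to be unchanged.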
